A study of Mus musculus with 172 samples.

Results

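Protocadherins are cell-surface adhesion proteins of the cadherin superfamily, and 68 of the 14896 genes listed in the cortex tables are protocadherin genes, chosen as all symbols that begin with Pcdh. Of these, 56 belong to the alpha (13 genes), beta (21 genes) and gamma (22 genes) clusters that lie next to each other on chromosome 18, and 12 are non-clustered genes spread over chromosomes 3, 5, 10, 14, 18 and X. The samples were pools of cerebral cortex RNA, each from young adult male mice of 1 line and 1 condition. Mice were either sleep deprived by gentle handling for 6 h from light onset (SD) or left undisturbed in another room (Ctr), and both were killed at ZT6, 6 h after light onset. There were 39 pools per condition: 33 BXD/RwwJ lines, which are recombinant inbred lines from a cross of C57BL/6J and DBA/2J, 2 pools of each parental strain (1 from the start and 1 from the end of breeding and data collection), and 1 pool of each of the reciprocal F1 hybrids (BD and DB). Ctr and SD pools were matched by line, or by strain and pool number, which gave 39 pairs. A further 4 BXD/TyJ lines, from an older panel of the same cross, were left out of the tests and are given as values. Because 1 library was made per pool, the change of a single line has no error of its own, and in bulk cortex fewer cells of a type and less RNA per cell cannot be told apart.

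The clustered protocadherins are known as surface labels of neurons. In the alpha and gamma clusters each gene has its own promoter and its own first exon, which codes for the outside of the protein and is spliced to constant exons shared by the cluster, whereas a beta gene stands on a single exon. A neuron switches on a small and largely random set of these promoters, through CTCF and cohesin, and cells or branches of 1 cell with the same set recognise each other. The C-type genes (Pcdhac1, Pcdhac2, Pcdhgc3, Pcdhgc4, Pcdhgc5) are the exception, since their promoters are not chosen at random in this way. The non-clustered genes are mostly delta protocadherins, each with a regional or laminar pattern in the brain, and several act at synapses.

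Cortical excitatory neuron markers were present in every library, with a summed level of 12.48 to 12.81 log2 CPM, and only 1 of 7 liver markers was listed, Ttr, which is also a choroid plexus gene. Libraries held 18995492 to 28998853 counted reads. The Ctr library of BXD90 stood apart: its median absolute deviation from the gene medians was 0.20 log2 units, against a median of 0.063 for the Ctr libraries, and it was the lowest of 39 for 25 of the 68 protocadherins. Its median deviation over the members was -0.51, against 0.073 for the SD library of the same line, and in 48 of 68 members the change of BXD90 was the highest of the 39 pairs. The Ctr library of BXD56 came next (0.12) and had the highest summed level of astrocyte, striatum and meninges markers. Results are therefore also given without BXD90.

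The upstream sequences of 3 non-clustered members, Pcdh8, Pcdh17 and Pcdh20, are shown first. They were picked because they lie on chromosome 14 and went in different directions after SD: Pcdh8 and Pcdh17 rose and Pcdh20 fell. Pcdh9, also on chromosome 14, fell too and is not shown. The sequences are the 250 bases before the annotated start in RefSeq, on GRCm38.p6. Capitals mark CCAAT or its reverse complement, a common promoter element, searched on both strands.
Pcdh8 (chr14:79771313-79771562, minus strand): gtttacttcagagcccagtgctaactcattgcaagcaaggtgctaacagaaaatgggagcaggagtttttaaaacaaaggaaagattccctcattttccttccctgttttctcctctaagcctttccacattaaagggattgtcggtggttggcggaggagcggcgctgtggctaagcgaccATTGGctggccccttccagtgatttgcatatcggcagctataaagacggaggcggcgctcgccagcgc
Pcdh17 (chr14:84443313-84443562, plus strand): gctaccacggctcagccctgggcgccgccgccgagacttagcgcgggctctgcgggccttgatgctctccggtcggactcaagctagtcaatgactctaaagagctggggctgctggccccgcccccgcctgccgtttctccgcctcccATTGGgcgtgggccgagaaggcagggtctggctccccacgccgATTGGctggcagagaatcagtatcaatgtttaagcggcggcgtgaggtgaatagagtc
Pcdh20 (chr14:88471397-88471646, minus strand): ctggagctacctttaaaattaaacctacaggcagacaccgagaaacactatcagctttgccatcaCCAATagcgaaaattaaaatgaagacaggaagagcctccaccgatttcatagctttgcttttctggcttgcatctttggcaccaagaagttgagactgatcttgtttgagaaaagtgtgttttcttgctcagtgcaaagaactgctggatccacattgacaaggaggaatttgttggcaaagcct

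The element was found in 8 of the 9 non-clustered members with an entry (all but Pcdh7), and in 33.8% of the 32851 promoters of the table. A member was counted if any of its entries held the element, whereas the percentages are of single promoters, so the 2 shares are of unlike units. The element was chosen after the sequences had been looked at, so its share among the members is a description. The cAMP response element TGACGTCA, the E-box CACGTG and the AP-1 site TGANTCA were in no window of the 9 genes (1.55%, 6.02% and 6.75% of all promoters). The core of the cAMP response element, TGACG, was found for Pcdh9 and Pcdh10 and in 17.8% of all promoters.

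SD changed most of the non-clustered protocadherins, in both directions. Of the 12 genes, 3 rose, 7 fell and 2 did not pass the test (limma, adjusted p under 0.05 by the Benjamini-Hochberg method over 14896 genes). In all of cortex 68.4% of genes passed, 33% upward and 35.4% downward, and the median log2 fold change was -0.14 over the 12 genes and -0.0097 over all genes. None of the 68 protocadherins changed by 0.5 log2 units or more and passed, which 7.18% of all genes did.

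Pcdh20, a protocadherin of layer 4 neurons, showed the largest fall. Its level ranged from 4.395 to 5.78 log2 CPM in the 39 Ctr pools (median 5.23) and from 4.39 to 5.37 in the SD pools (median 4.72). The ranges overlapped, but the SD pool was the lower of the pair in 37 of 39. The log2 fold change was -0.48 ± 0.050 (SE, n = 39 pools per condition; adjusted p = 3.41e-14), so that it fell by 28.4 percent. Per pair it ran from -0.975 in BXD70 to 0.13 in BXD90.

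Pcdh11x, an X-linked delta protocadherin, fell almost as far. Levels were 4.02 to 5.15 log2 CPM in Ctr (median 4.84) and 4.10 to 4.68 in SD (median 4.35), so that the SD median lay in the lower part of the Ctr range. The log2 fold change was -0.46 ± 0.045 (adjusted p = 3.14e-15), with 37 of 39 pairs lower after SD. BXD90 was again the pair with the highest change, at 0.44.

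The second X-linked member, Pcdh19, which is mutated in an epilepsy that affects mainly girls and which partners N-cadherin, fell by 0.24 ± 0.039 on the log2 scale (adjusted p = 5.35e-08), and was lower in 36 of 39 pairs. Pcdh9 (-0.20 ± 0.033), Pcdh10 (-0.17 ± 0.023), Pcdh7 (-0.15 ± 0.034) and Pcdh15 (-0.13 ± 0.039) fell by less, in 37, 37, 38 and 30 of 39 pairs. Pcdh10 binds a subunit of the actin-regulating WAVE complex, and Pcdh15 is best known from the tip links of hair cells. Their adjusted p ran from 6.61e-10 for Pcdh10 to 0.0031 for Pcdh15. Changes of this size were smaller than the range of levels between pools: Pcdh7, for example, spanned 6.93 to 8.04 log2 CPM in Ctr.

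Pcdh1 rose in all 39 pairs. It is a delta protocadherin that is also found in epithelia, and its level went from 7.13 ± 0.17 log2 CPM (SD of 39 pools) in Ctr to 7.39 ± 0.13 in SD, a log2 fold change of 0.26 ± 0.033 (adjusted p = 7.97e-11) or a rise of 19.6 percent. The smallest change was 0.026 in BXD45 and the largest 1.04 in BXD90, whose Ctr library was the lowest of all at 6.45. Without BXD90 the estimate was 0.24 (adjusted p = 1e-11).

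Pcdh17, which gathers at synapses of the corticobasal ganglia circuit, ranged from 5.44 to 6.31 log2 CPM in Ctr (median 6.08) and from 5.94 to 6.54 in SD (median 6.29). It rose by 0.22 ± 0.034 (adjusted p = 2.33e-08), in 37 of 39 pairs. Pcdh8, known as arcadlin, is an activity-induced protein of the synapse that draws N-cadherin from the surface through the kinase Taok2 and p38. It rose by 0.16 ± 0.042 (adjusted p = 4.8e-04) in 35 of 39 pairs, and its largest fall, -0.31, was in BXD56, whose Ctr level of 5.68 was the highest of the Ctr pools.

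The 2 members that did not pass were Pcdh18 (-0.040 ± 0.061, adjusted p = 0.58) and Pcdh12, an endothelial gene at the limit of detection here (-0.0079 ± 0.14, adjusted p = 0.96). Pcdh12 had a mean of 11.6 reads per Ctr library and as few as 3, and its change per pair spread from -1.70 to 1.81. No call among the 12 was different without BXD90 or with the line as a replicate block.

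**Figure D1:**
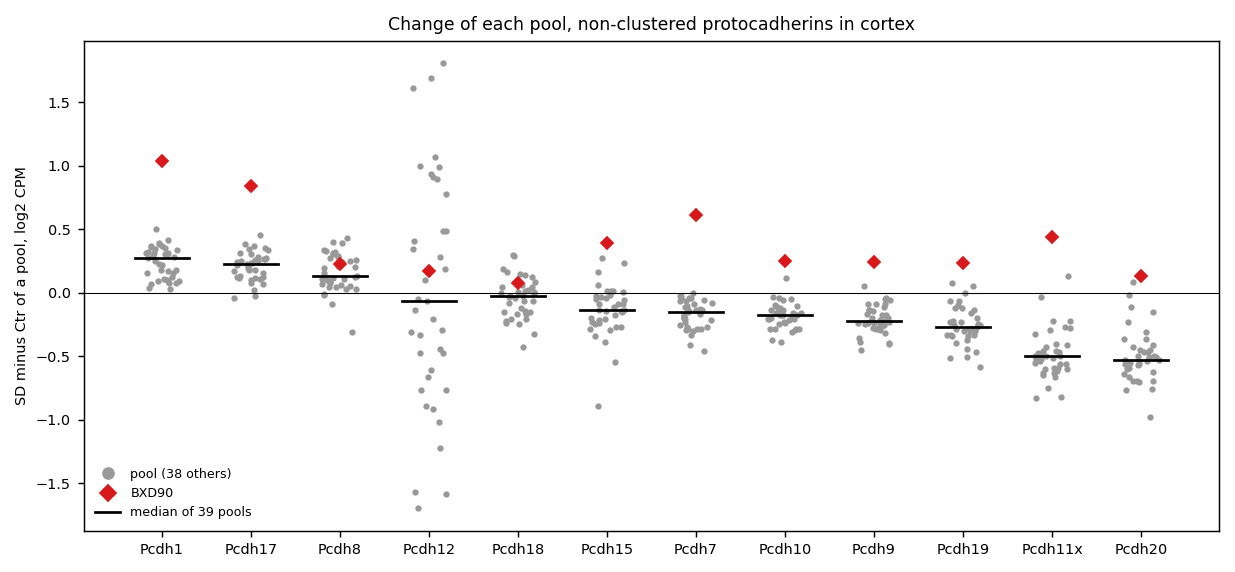
Change of each of 39 pools (SD minus Ctr of the same line, log2 CPM, vertical axis) for the 12 non-clustered protocadherins, ordered by mean change. Grey points are pools, red diamonds are BXD90 and black lines are medians of 39 pools. All points of Pcdh1 lie above 0, those of Pcdh20 and Pcdh11x lie below 0 in 37 of 39 pairs, Pcdh12 spreads from -1.70 to 1.81, and BXD90 is the highest point of 9 genes.

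Levels between genes can be compared per length only, as RPKM, reads scaled to library size and to kilobases of annotated exon, computed for the non-clustered and beta genes on the mm9 models of GENCODE vM1. These models are not the set on which the reads were counted, and the model of Pcdh9, of 3714 bases, is the shortest of the 12, so that its place is the least certain. In Ctr cortex Pcdh9 (46.6 ± 4.76, SD, n = 39 pools), Pcdh7 (33.9 ± 3.72), Pcdh10 (23.5 ± 1.87) and Pcdh1 (16.7 ± 1.72) were the most abundant of the 12 genes, each apart from the next by more than the spread. Pcdh8 (8.90 ± 1.29), Pcdh20 (7.16 ± 1.12) and Pcdh17 (7.09 ± 0.78) followed, and neighbours among these 3 did not differ beyond their spread. Below them came Pcdh19 (4.76 ± 0.64) and Pcdh11x (3.20 ± 0.47), then Pcdh15 (1.80 ± 0.28) and Pcdh18 (1.53 ± 0.29), which overlapped, and Pcdh12 (0.088 ± 0.041).

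Beta genes, named here by their levels after these were seen, ran from 6.10 ± 0.56 RPKM for Pcdhb17 to 0.43 ± 0.14 for Pcdhb6. Pcdhb20 (4.51 ± 0.33) and Pcdhb9 (4.35 ± 0.70) came after Pcdhb17, and these 2 did not differ beyond their spread. Pcdhb20 is a pseudogene in the mm9 models. Beta exons are alike, but apart from Pcdhb20, which was not searched, at most 2.54 percent of the 100-base stretches of a beta gene were found in the transcripts of another gene, and none of those of a non-clustered gene. No separate models of the alpha and gamma genes were at hand, so for these levels are given in log2 CPM and compared within a gene only.

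Of the 56 clustered protocadherins 21 fell after SD, 2 rose and 33 did not pass the test. The share that fell, 37.5 percent, was close to that of all genes, 35.4%, while the share that rose, 3.57 percent, was below their 33%. The median log2 fold change was -0.087. A fit that keeps the line as a replicate block called 35 in place of 23, of which 30 fell and 5 rose, where 76.3% of all genes passed (39.6% downward and 36.6% upward). Without BXD90 the counts were 23 and 1 (69% of all genes passed, 35.8% downward and 33.2% upward). The share of clustered genes that passed was below the share of all genes in each of the 3 fits.

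In the alpha cluster 3 of 13 genes fell and 1 rose. The falls were those of the C-type genes Pcdhac1 (-0.21 ± 0.064, adjusted p = 0.0026) and Pcdhac2 (-0.11 ± 0.037, adjusted p = 0.0059), and that of Pcdha5 (-0.18 ± 0.053, adjusted p = 0.0023), each lower in 31 of 39 pairs. Pcdhac2 is required for the even spacing of serotonergic axons. Its Ctr levels ran from 4.68 in BXD90 to 5.70 log2 CPM, and without BXD90 its fold change was -0.13. Pcdha8 rose by 0.35 ± 0.16 (adjusted p = 0.046) on a mean of 15.3 reads per Ctr library, and the call was lost without BXD90 (0.34, adjusted p = 0.058). Under the replicate block by line 4 alpha genes fell and 2 rose. The calls gained were those of Pcdha1 (-0.16, adjusted p = 0.025 with the block) and Pcdha11 (0.10, adjusted p = 0.047 with the block). Both are named for this after their values were seen.

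In the beta cluster 10 of 21 genes fell and none rose. The largest falls were those of Pcdhb9 (-0.24 ± 0.052, adjusted p = 3.48e-05), Pcdhb13 (-0.24 ± 0.046, adjusted p = 4.65e-06) and Pcdhb22 (-0.22 ± 0.035, adjusted p = 7.88e-08), lower in 36, 34 and 33 of 39 pairs. The calls were unevenly placed, a pattern seen after the values were known: none of the 7 genes from Pcdhb2 to Pcdhb8 passed, and 6 of these had an estimate above 0, whereas 10 of the 14 genes from Pcdhb9 to Pcdhb22 fell. Under the replicate block by line 11 beta genes fell and 2 rose. The rises were those of Pcdhb4 (0.17, adjusted p = 0.0058 with the block), the 1 gene of the 7 that then passed, and Pcdhb14 (0.075, adjusted p = 0.019 with the block), among 12 of the 14 that passed. Both are named for this after their values were seen. The difference between the ends of the cluster was not tested.

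Of the 19 A-type and B-type gamma genes 8 fell, none rose and 11 did not pass, and the estimate was below 0 for 17. Under the replicate block by line 15 fell and none rose. Among the 8, Pcdhga2 fell furthest. Its level was 2.68 to 3.73 log2 CPM in Ctr (median 3.33) and 2.20 to 3.58 in SD (median 3.02), and it was lower after SD in 37 of 39 pairs, by 0.30 ± 0.058 on the log2 scale (adjusted p = 4.84e-06). Pcdhga7 (-0.21 ± 0.050, adjusted p = 1.8e-04) and Pcdhga1 (-0.19 ± 0.058, adjusted p = 0.0023) followed. Pcdhga3 had an estimate of -0.22 and was lower in 33 of 39 pairs, but passed only with the line block (adjusted p = 2.4e-06, against 0.105 without it).

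The C-type gene Pcdhgc5 rose. It ranged from 6.44 to 7.37 log2 CPM in Ctr (median 7.06) and from 6.88 to 7.40 in SD (median 7.18), a log2 fold change of 0.13 ± 0.033 (adjusted p = 4.3e-04) with 32 of 39 pairs higher. Pcdhgc3, which binds Axin1 and shapes dendrites of cortical neurons (0.037 ± 0.033, adjusted p = 0.32), and Pcdhgc4, needed for the survival of interneurons (0.0084 ± 0.038, adjusted p = 0.86), did not pass.

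Summed over genes, the A-type and B-type gamma genes held 167 ± 23.9 CPM in Ctr and 152 ± 20.3 CPM after SD (± SD of 39 pools each), with a lower sum in 36 of 39 pairs and a median ratio of 0.90. The beta sum was 173 ± 14.7 and 162 ± 16.2 CPM, lower in 35 pairs. The sum of the 11 alpha genes without the C types was 44.2 ± 5.00 and 43.7 ± 4.78 CPM, with 22 pairs lower and 17 higher. The sum of the 5 C-type genes went from 258 ± 23.3 to 267 ± 18.2 CPM, higher in 29 pairs. Of these 5 genes only Pcdhgc5 passed upward, Pcdhac1 and Pcdhac2 passed downward, and Pcdhgc3 and Pcdhgc4 did not pass. In each of these sums the BXD90 Ctr pool was the lowest.

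**Figure D2:**
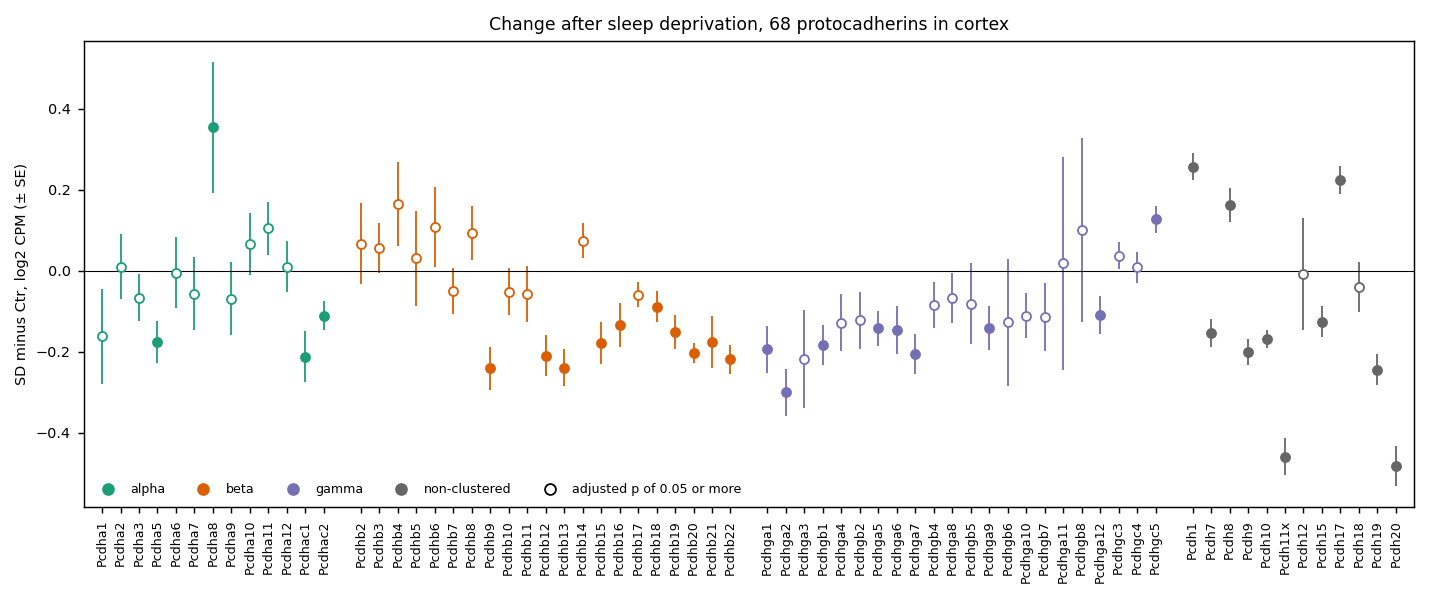
Mean change after SD (SD minus Ctr, log2 CPM, vertical axis; bars are SE from limma, n = 39 pools per condition) of the 68 protocadherins, clustered genes in genome order. Filled points have an adjusted p under 0.05. The filled points of the beta genes start at Pcdhb9, Pcdhgc5 and Pcdha8 are the 2 clustered genes that rose, and Pcdh20 and Pcdh11x have the largest changes.

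Counts of cell type markers stand beside those of all genes, of which 68.4% passed, 33% upward and 35.4% downward. Meninges markers moved the same way as the falls: 5 of 6 fell after SD, with a median log2 fold change of -0.23. Their summed levels were 5.76 to 6.77 log2 CPM in Ctr and 5.58 to 6.32 in SD. Of the striatum markers 2 of 6 listed rose (sums of 7.09 to 8.50 in Ctr and 7.23 to 8.34 in SD), of the astrocyte and interneuron markers 3 of 6 and 3 of 7 rose and none fell, and of the excitatory neuron markers 3 of 8 rose and 4 fell. Oligodendrocyte and precursor markers moved both ways, with 1 of 7 up and 3 down. Microglia markers had 2 of 6 up and 2 down, and endothelial and mural markers 3 of 7 up and 2 down. Choroid plexus markers spread from 3.34 to 7.95 log2 CPM between Ctr libraries and from 3.40 to 8.73 between SD libraries. The part of all these cell types in the changes of the protocadherins was not tested.

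The lists of genes that regulate or work with protocadherins are read against the 68.4% of all genes that passed (33% upward, 35.4% downward). Of the 20 listed regulators of the cluster promoters and their chromatin 14 rose and 3 fell, with a median log2 fold change of 0.058. Tet3, which oxidises methylated cytosine, rose by 0.63 ± 0.030 (adjusted p = 5.99e-32) in all 39 pairs, and Zfp143, a protein of chromatin loop anchors, by 0.30 ± 0.026 (adjusted p = 2.62e-18), also in all 39. Dnmt3b, the methyltransferase that methylates cluster promoters in the embryo, fell by 0.41 ± 0.097 on the log2 scale (adjusted p = 1.5e-04), from a low Ctr mean of 0.30 log2 CPM.

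Among 26 cytoplasmic partners and effectors 9 rose and 7 fell. Ret, a receptor kinase that associates with alpha and gamma protocadherins (0.47 ± 0.086, adjusted p = 1.79e-06), Baiap2, a partner of the WAVE complex (0.46 ± 0.020, adjusted p = 2.23e-34), and Map2k3, the kinase upstream of p38 in the arcadlin pathway (0.37 ± 0.033, adjusted p = 3.5e-17), rose most. Of the 10 genes of shedding and intramembrane cleavage 3 rose and 4 fell, the largest changes being falls of Mmp9 (-0.39 ± 0.072, adjusted p = 1.59e-06), Psen2, the catalytic subunit of gamma-secretase (-0.22 ± 0.045, adjusted p = 1.67e-05), and Mmp14 (-0.20 ± 0.053, adjusted p = 4.2e-04).

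Of 20 classical cadherins and catenins 7 rose and 6 fell, with Cdh22 (0.51 ± 0.029, adjusted p = 5.09e-27), Cdh1 (-0.47 ± 0.083, adjusted p = 8.94e-07) and Cdh4 (0.35 ± 0.038, adjusted p = 1.23e-13) changed most. Of 13 listed large cadherins 3 rose and 6 fell. Fat2 (-1.04 ± 0.33, adjusted p = 0.0035), Celsr1 (-0.36 ± 0.049, adjusted p = 7.57e-10) and Fat4 (-0.22 ± 0.039, adjusted p = 5.96e-07), all giant cadherins of planar cell polarity or its relatives, were the largest changes. The level of Fat2 was low, with a Ctr mean of -0.12 log2 CPM. Each of these lists, like the protocadherins, held genes that rose and genes that fell.

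The share of genes that differed between strains was higher among the protocadherins than among all genes. In the fit with strain terms over 37 strains and 78 libraries, 52 of 56 clustered and 11 of 12 non-clustered members passed, against 55.5% of all genes (limma moderated F test, adjusted p under 0.05). The share of the variance that lay between strains, from Ctr and SD pools after the condition means were removed, had a median of 62.1 percent over the clustered genes, 43.6 over the non-clustered genes and 31.4 over all genes. Among the 4274 genes with a mean log2 CPM of 1 to 4, the range that holds most clustered members, the median was 28.8 percent and 51.6 percent passed. The 5 members that did not pass, of which Pcdhb19 and Pcdhb20 are named only for this, were Pcdhac1, Pcdhb19, Pcdhb20, Pcdhb22 and Pcdh12. Without BXD90, 65 members and 61.2% of all genes passed.

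The between-strain share was highest in the gamma cluster. All 22 gamma genes passed, and Pcdhga11 (98.1 percent), Pcdhgb6 (96.4 percent) and Pcdhgb8 (96.1 percent) ranked 38th, 104th and 115th of the 14896 genes. In the beta cluster Pcdhb5 (91.0 percent), Pcdhb3 (82.4 percent) and Pcdhb9 (80.5 percent) led, and in the alpha cluster Pcdha6 (72.2 percent), Pcdha2 (72.0 percent) and Pcdha12 (71.3 percent). The 22 gamma genes ran from 37.1 to 98.1 percent, with a median of 64.6. The C-type gamma genes lay within this range, below the median, at 61.4 percent for Pcdhgc3, 48.5 for Pcdhgc4 and 46.9 for Pcdhgc5. A-type and B-type genes such as Pcdhga5 (37.1 percent), named for this after its value was seen, were as low or lower. The SD between strains was 1.18 log2 units for Pcdhga11 and 0.10 for Pcdhgc5.

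Of the non-clustered genes Pcdh18, a partner of the reelin adaptor Dab1, had the highest share, 83.6 percent, followed by Pcdh8 (68.4 percent). Pcdh18 did not change after SD beyond its error, yet its Ctr level ran from 2.36 log2 CPM in BXD101 to 3.40 in BXD49. Pcdh1 (29.9 percent) and Pcdh15 (22.9 percent) were among the lowest.

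The parental strains DBA/2J and C57BL/6J differed in 39 of 68 members, 33 of 56 clustered and 6 of 12 non-clustered, against 25.5% of all genes (limma on 8 libraries with condition as a covariate, adjusted p under 0.05). In DBA/2J 17 members were higher and 22 lower, compared with 11.6% and 13.9% of all genes. Differences of at least 2-fold that passed were found for 8 members, all clustered, and for 3.19% of all genes. Reads of both strains were aligned to the same mm9 reference, and an effect of sequence variants on the counts was not tested.

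Gamma genes were mostly lower in DBA/2J. Of the 19 A and B types 13 were lower and 2 higher, and none of the 3 C types passed. Pcdhga11 had 4.50 and 4.30 log2 CPM in the 2 C57BL/6J Ctr pools and 4.23 and 4.43 in the SD pools. The DBA/2J pools had 2.04 and 2.20 in Ctr and 1.84 and 2.02 in SD, so the strains were far apart in both conditions. The difference was -2.34 ± 0.089 (adjusted p = 7.33e-11), 5.06-fold.

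Pcdhgb6, 3 places before it in the cluster, was also lower in DBA/2J (-1.73 ± 0.092, adjusted p = 2.86e-09), and Pcdhga3, near the start of the cluster, differed by -1.34 ± 0.094 (adjusted p = 5.67e-08). Pcdhgb8, the next gene after Pcdhga11, went the other way. It had 0.32, 0.12, 0.21 and 0.47 log2 CPM in the C57BL/6J pools and 2.22, 2.40, 2.49 and 2.45 in the DBA/2J pools, a difference of 2.11 ± 0.14 (adjusted p = 2.34e-08). RefSeq annotates Pcdhgb8 as a transcribed pseudogene. Pcdhga4 was the other gamma gene that was higher in DBA/2J (0.36 ± 0.083, adjusted p = 0.0052).

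The A-type and B-type gamma sum was 213, 211, 173 and 195 CPM in the C57BL/6J pools (2 Ctr, then 2 SD) and 147, 143, 129 and 131 in the DBA/2J pools, without overlap. The beta sum was 167, 174, 150 and 161 CPM against 183, 180, 172 and 179. The ranges overlapped over both conditions together, but within Ctr and within SD both DBA/2J pools were higher. The alpha sum without C types was 44.1, 45.4, 36.8 and 46.9 against 46.8, 48.1, 44.1 and 49.9 CPM. It overlapped within SD but not within Ctr, and single alpha genes differed.

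In the alpha cluster differences went both ways, with 5 genes higher in DBA/2J and 4 lower. Pcdha1 (1.65 ± 0.19, adjusted p = 9.52e-06), Pcdha2 (1.32 ± 0.13, adjusted p = 1.57e-06) and Pcdha8 (0.92 ± 0.27, adjusted p = 0.021) were higher, Pcdha1 and Pcdha2 lying at the start of the cluster. Pcdha9 (-1.18 ± 0.18, adjusted p = 1.6e-04), Pcdha6 (-0.88 ± 0.13, adjusted p = 1.4e-04) and Pcdha7 (-0.84 ± 0.14, adjusted p = 4e-04) were lower. Pcdha8 lost its call without 3 of the 8 libraries in turn (adjusted p of at most 0.078), and Pcdhac2 (-0.22 ± 0.073, adjusted p = 0.041) kept it without 1 of the 8 only.

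In the beta cluster 6 genes were higher and 3 lower in DBA/2J. Pcdhb2 (1.23 ± 0.12, adjusted p = 2.55e-06), Pcdhb11 (0.93 ± 0.11, adjusted p = 9.41e-06) and Pcdhb10 (0.83 ± 0.10, adjusted p = 2.3e-05) were higher. Pcdhb5 was lower (-0.99 ± 0.10, adjusted p = 3.84e-06), with 3.36, 3.23, 2.95 and 3.35 log2 CPM in C57BL/6J and 2.22, 2.31, 2.27 and 2.13 in DBA/2J. Pcdhb18 (-0.34 ± 0.11, adjusted p = 0.036) and Pcdhb7 (-0.31 ± 0.10, adjusted p = 0.042) were smaller differences that passed without 4 and 3 of the 8 libraries in turn and were lost without the others.

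The differences in non-clustered genes were small. Pcdh11x (0.33 ± 0.078, adjusted p = 0.0058), Pcdh20 (0.20 ± 0.049, adjusted p = 0.0080), Pcdh19 (0.18 ± 0.060, adjusted p = 0.039) and Pcdh8 (0.18 ± 0.061, adjusted p = 0.045) were higher in DBA/2J. Pcdh18 (-0.26 ± 0.080, adjusted p = 0.027) and Pcdh9 (-0.25 ± 0.053, adjusted p = 0.0027) were lower. Pcdh11x, Pcdh20 and Pcdh9 passed without each of the 8 libraries in turn, whereas Pcdh18 passed in 4 of the 8 fits and Pcdh19 and Pcdh8 in 2. Without the first or the second DBA/2J Ctr pool, 3 of the 12 passed.

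**Figure D3:**
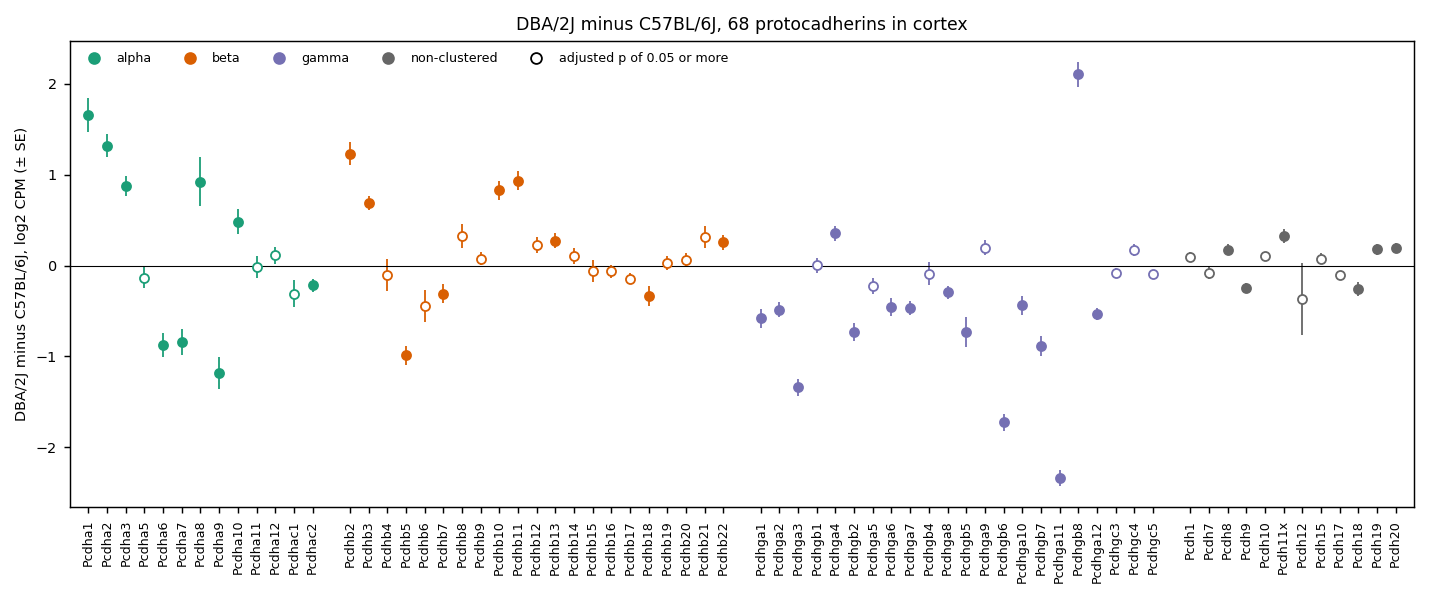
Difference between the parental strains (DBA/2J minus C57BL/6J, log2 CPM, vertical axis; bars are SE from limma on 8 libraries) of the 68 protocadherins in genome order. Filled points have an adjusted p under 0.05. The gamma genes lie mostly below 0, down to -2.34 for Pcdhga11, its neighbour Pcdhgb8 stands at 2.11, and the non-clustered genes that passed lie between -0.26 and 0.33.

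Levels in the BXD/RwwJ lines fell on one side or the other of a gap for 3 genes of the later part of the gamma cluster, Pcdhgb6, Pcdhga11 and Pcdhgb8. In the Ctr pools Pcdhga11 was 1.43 to 2.65 log2 CPM in 22 lines and 4.06 to 4.76 in the other 11, with nothing between. Both DBA/2J pools lay with the lower lines and both C57BL/6J pools with the upper lines. In the SD pools the same 11 lines were above the gap, at 3.80 to 4.74, and the others at 1.55 to 2.71.

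The widest gap of Pcdhgb8 split the same lines in the opposite order. The 11 lines above the gap of Pcdhga11 were the 11 below that of Pcdhgb8, at -0.33 to 0.52 log2 CPM in Ctr, while the other 22 had 1.85 to 2.79. For Pcdhgb6 the widest gap set the same 11 lines above, at 3.21 to 3.87 in Ctr, and 22 below, at 1.83 to 2.70, and the assignment was the same in SD pools for all 3 genes. Lines of a recombinant inbred panel carry 1 parental allele at a locus, but alleles of the lines were not used here, so these are splits by level, described and not tested.

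The F1 hybrids lay between the parents. For Pcdhga11 the BD and DB pools had 12.3 and 12.9 CPM in Ctr and 11.6 and 12.4 in SD, on a linear scale, where the means of the parental means were 12.8 and 11.99. For Pcdhgb8 the F1 pools had 3.16 and 2.36 CPM in Ctr and 3.01 and 3.52 in SD (parental mean 3.07 and 3.40). Over the 8 members at least 2-fold apart, all 32 F1 values (2 hybrids, 2 conditions) lay between the means of the parents, and over all 39 members that passed 129 of 156 did.

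No other member had a widest gap that parted the lines 22 to 11 in both conditions. For Pcdhgb5, named for this after its values were seen, a gap of 0.34 in Ctr left 9 lines above, with the C57BL/6J pools, and 24 below, with the DBA/2J pools, and all 9 were among the 11 upper lines of Pcdhga11. In SD its widest gap left 2 lines above. For the non-clustered Pcdh18 the widest gap lay between the parents in both conditions but was narrow, 0.18 in Ctr (16 lines above) and 0.11 in SD (15 lines above), with C57BL/6J above. Pcdhb5 ran from 1.62 in BXD48 to 3.59 log2 CPM in BXD55 in Ctr, and its widest gap between neighbouring lines, 0.29, left 2 lines above. For Pcdhga3, with 89.6 percent of the variance between strains, the widest Ctr gap was 0.25 and left 3 lines below, and the widest SD gap was 0.70 and left 1 line below. Gaps over 0.5 in other members mostly set a single line apart, for example BXD90 at the bottom for Pcdhac1 in Ctr (0.91, with the next line at 1.505).

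**Figure D4:**
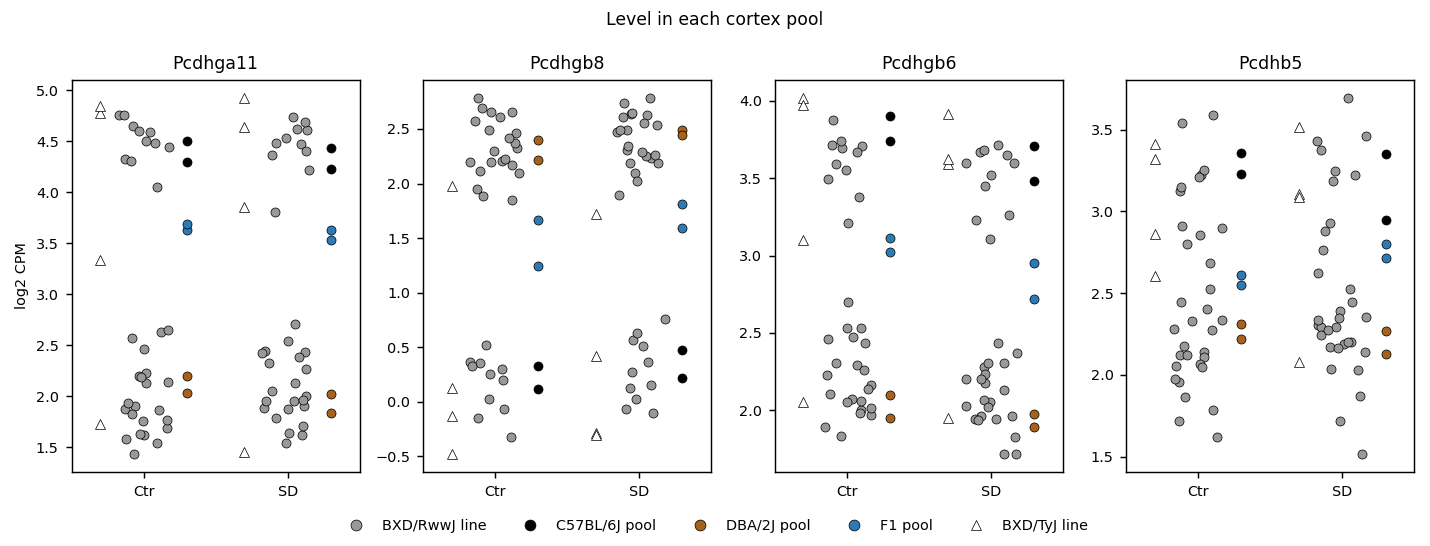
Level (log2 CPM, vertical axis) of 4 clustered genes in every cortex pool, Ctr and SD side by side. Grey points are BXD/RwwJ lines, black C57BL/6J, brown DBA/2J, blue F1 pools and white triangles BXD/TyJ lines. Pcdhga11, Pcdhgb8 and Pcdhgb6 split 33 lines into 22 and 11 with the F1 pools between, whereas Pcdhb5 has no such gap.

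The 4 BXD/TyJ lines were read against these gaps. BXD29 and BXD29t had 4.78 and 4.84 log2 CPM of Pcdhga11 in Ctr and 0.13 and -0.13 of Pcdhgb8, and BXD32 had 1.73 and 1.98, each on one side of both gaps. BXD05 was between the sides for Pcdhga11 in Ctr, at 3.33, and had 3.85 in SD, while its Pcdhgb8 was -0.48 and -0.29, as low as in the lowest lines.

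**Figure D5:**
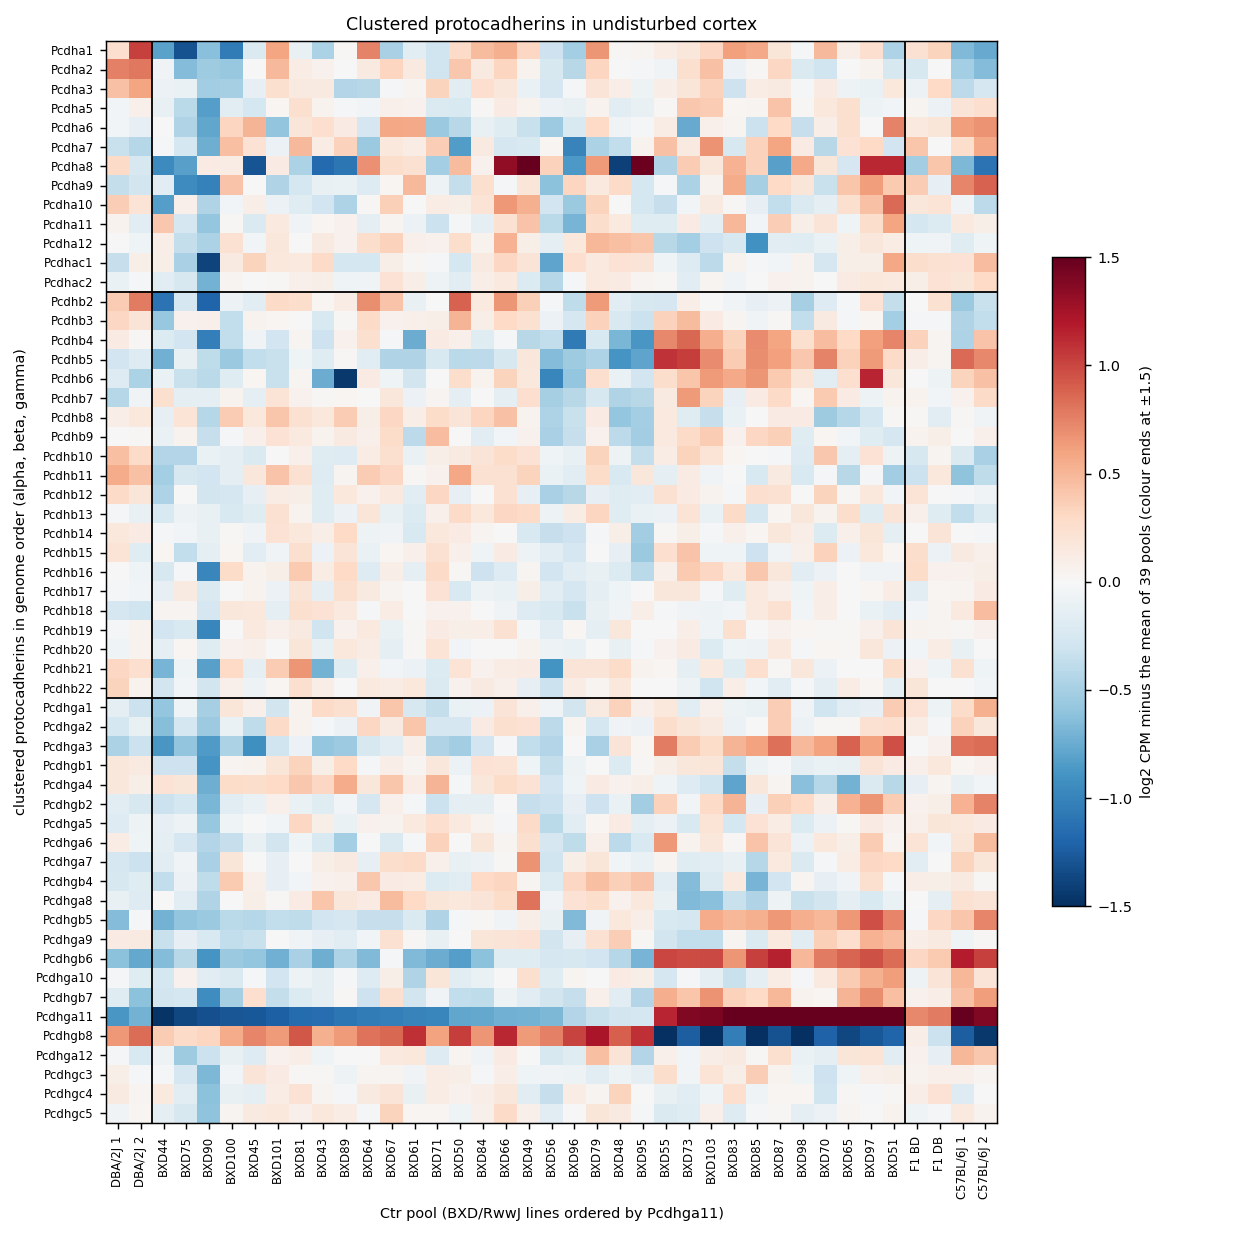
Level of the 56 clustered protocadherins in Ctr cortex (colour, log2 CPM minus the mean of 39 pools; rows are genes in genome order, columns are pools, with the 33 BXD/RwwJ lines ordered by Pcdhga11, DBA/2J at the left and the F1 and C57BL/6J pools at the right). The 11 lines that are red for Pcdhga11 and Pcdhgb6 are blue for Pcdhgb8, and the column of BXD90 is blue for most genes.

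In liver 28 of the 68 members were listed, none of them alpha genes. The liver and cortex tables were normalized separately, so the levels are set side by side without a test. Pcdh1 had 7.32 ± 0.13 log2 CPM in liver Ctr pools and 7.13 ± 0.17 in cortex (SD, n = 39), and Pcdh12 had 4.02 ± 0.28 in liver and -1.01 ± 0.65 in cortex. Pcdhgc3 was the clustered gene with the most reads in liver, 73.7 per library (3.42 ± 0.31 log2 CPM), and the other 20 clustered genes had a mean of at most 6.46 reads.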

How the data were processed

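The analysis started from the deposited log2 CPM values. By the study's methods and the submitters' processing notes, stranded single-end libraries were aligned to mm9 with STAR, checked with FastQC, counted on RefSeq genes with HTSeq (reverse strand, union mode, in which a read on exons shared by several genes counts for none, as on the constant exons of the alpha and gamma clusters), filtered on a low mean count and TMM-normalized with edgeR to log2 CPM. Undoing this gave whole reads (within 0.02) for 100% of the values, used for depth, RPKM and voom. Pcdha4 and Pcdhb1 were not analysed here.

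SD and Ctr were compared with limma 3.58.1 in R 4.3.3 (lmFit, eBayes with a trend) on the deposited values and not on voom weights. Fold changes hold on the log2 CPM scale with its prior count and understate those of low genes. The Benjamini-Hochberg adjusted p was taken over all 14896 genes. Strain terms and the parental difference were fitted the same way with condition as a covariate. The fits were also run on simulated counts. For the SD fit these held no correlation between the Ctr and SD pools of a line, so they do not test the fit for that. The Ctr and SD pools of a line deviated together (correlation over all genes of at least 0.30, median 0.61, against -0.020 for different lines), so a fit with the line as a replicate block is given where it changes a result. These pools come from the same strain, and the study aimed to pair SD and Ctr mice within experimental cohorts. In the strain fits and the between-strain shares, strain and shared cohort cannot be told apart. All lines were aligned to mm9 alone, so an effect of sequence variants on the counts was not tested in these fits, shares or splits by level. P-values of the SD fit without the block measure the spread between pools of different strains. With the line as a block they measure the spread of the change between pairs. Those of the strain and parental fits measure the spread left within a strain after condition.

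The members and lists were chosen with earlier results of these data known. Named were all non-clustered and C-type members. In each cluster up to 3 genes with the largest rise, fall, between-strain share and parental difference in each direction were named, and in each list the 3 largest changes that passed. Alternatives were the replicate block, no trend, other scalings, low-value filter and pseudocount, voom, other sets of pools and single libraries left out. The fits without BXD90, and without BXD90 and BXD56, were added after the data had been seen.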

Additional observations from a re-analysis of the deposited data

Results flagged for a closer look

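In the 4 BXD/TyJ lines 5 of the groups of 4 values had a line far from the other 3 by Dixon's ratio, the gap to the nearest value over the whole range, at its 95% critical value. In each case it was the lowest line. Chance gives about 1 in 20 such groups, and 86 were looked at. Pcdh17 in Ctr had 5.53 log2 CPM in BXD05 and 6.01 to 6.03 in the others (ratio 0.960). Pcdh20 in SD had 4.34 in BXD05 against 4.85 to 4.91 (ratio 0.890). Pcdha5 in Ctr had 1.80 in BXD05 against 2.52 to 2.66 (ratio 0.838), and Pcdhb10 in Ctr had 1.69 in BXD05 against 2.27 to 2.32 (ratio 0.909). Pcdhgb6 in SD had 1.95 in BXD32 against 3.59 to 3.91 (ratio 0.836), and BXD32 was also low for Pcdhga11.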

How the results depend on the processing

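The count of clustered members that passed after SD, 23, was 35 with the line as a replicate block and 36 with voom and the line as a replicate block, and 16 to 36 over all alternatives. The 12 calls gained with the line as a replicate block came with no call lost. The 10 non-clustered members that passed after SD stayed 10 in every alternative. Members that passed for strain differences numbered 49 to 54 (clustered) and 9 to 11 (non-clustered). Leaving out 1 parental library gave 26 to 32 clustered and 3 to 7 non-clustered members that differed between the parents, against 33 and 6, with 3 non-clustered members without either DBA/2J Ctr pool. With the pool number (start or end of data collection) as a replicate block 34 clustered and 7 non-clustered members passed, Pcdh10 (0.11, adjusted p = 0.022) and Pcdhac1 (-0.31, adjusted p = 0.048) among those gained.

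The direction of Pcdh12 after SD changed with the 33 BXD/RwwJ lines alone (0.052), quantile normalization (0.11), without BXD79, BXD85 and BXD101 (0.038) and without BXD90 and BXD56 (0.020), and that of Pcdhgc4 changed in the last 2 of these sets (-0.00169 and -0.0106) and without BXD90 (-0.0064). Between the parents Pcdh12 changed direction without the first DBA/2J Ctr pool (0.046, with -0.661 to 0.046 over the 8 libraries left out in turn). None of these values passed, and the cause was not tested. Pcdha8 lost its call after SD in 7 alternatives, with adjusted p of at most 0.11. Counts of 11.6 reads for Pcdh12 and 15.3 for Pcdha8 limit what can be said of them.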
